A study of Mus musculus with 36 samples.

Results

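The cytosines described here were the CpG cytosines that gained 5-methylcytosine (5mC) in mouse knee cartilage 12 weeks after destabilization of the medial meniscus (DMM). They were chosen by the week 12 oxidative bisulfite (oxBS) values themselves, on 3 conditions. Each lay on an autosome with at least 10 reads in all 6 week 12 oxBS libraries, had a higher 5mC percentage in every DMM library than in every control library, and differed by at least 25 points between the pooled reads of the limbs. Of 1252534 covered cytosines, 426 met the conditions, which is 0.0340%, and they are called gaining cytosines below. The mirror conditions, with every DMM library lower, were met by 2672 cytosines, called losing cytosines. Gaining cytosines were thus 13.8% of the cytosines of both kinds.

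DMM is a surgical model of osteoarthritis, in which the ligament that anchors the medial meniscus is cut and the unstable joint slowly loses cartilage. The mice were male C57BL/6J, 12 weeks old at surgery. The right knee was operated and the left knee of the same mice, not operated, was the control, so the control limb shared the animals and any systemic response. Cartilage of the tibia and femur was collected 4 or 12 weeks after surgery from different mice, and 3 knees were pooled for each sample. Each limb and time had 3 DNA samples, each sequenced as an oxBS and a bisulfite (BS) library, and 3 RNA libraries from other mice, which made 36 libraries in all. The labels give replicate numbers but do not say that equal numbers share mice, and the p-values below measure only the spread between reads or between these pooled samples.

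In mammals, DNA methyltransferases place 5mC mainly on the cytosine of CpG dinucleotides, and TET enzymes oxidize it to 5-hydroxymethylcytosine (5hmC). Dense CpG islands at promoters are usually unmethylated, while CpGs in gene bodies and at distal regulatory elements carry levels that differ between cell types. BS sequencing reads both 5mC and 5hmC as C, and the added oxidation in oxBS leaves only 5mC as C, so that the difference of the 2 percentages estimates 5hmC. The libraries were made from MspI fragments, a reduced representation that favors CpG-rich DNA around CCGG sites. Articular cartilage is made by chondrocytes in a matrix of type II collagen and aggrecan, and lies on bone whose marrow holds blood-forming cells.

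Median coverage over cytosines was 28 to 72 reads in the week 12 oxBS libraries and 22 to 102 in those of week 4. Of the 6 week 12 oxBS libraries, control replicate 2 and DMM replicate 1 carried titles of another style than the rest. Among the rest, the style of the titles also differed between control and DMM. With control replicate 2 and DMM replicate 1 left out, the same conditions gave 1640 cytosines, of which 277 were among the 426. RNA totals were 27706547 to 62737656 counts, and all 9 chondrocyte markers, which include Col2a1, Acan and Sox9, were detected. Neutrophil, erythroid and muscle markers were detected beside them, and their levels are given with the RNA results.

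Short stretches around 5 groups of gaining cytosines are shown because they are among the densest groups and represent a promoter region, introns and a noncoding exon. They were taken from the plus strand of GRCm38, 5′ to 3′, with 30 bases on each side of the outermost gaining cytosines. Capitals mark the CpGs with a gaining cytosine on at least 1 strand. The stretches lay at chr4:154634753-154634846 (Prdm16), chr16:33751769-33751868 (Heg1), chr6:6864696-6864851 (Dlx6), chr2:164085284-164085421 (Stk4) and chr15:102945726-102945793 (Hotair).
Prdm16: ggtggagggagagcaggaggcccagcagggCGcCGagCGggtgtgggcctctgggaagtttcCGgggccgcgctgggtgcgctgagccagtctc
Heg1: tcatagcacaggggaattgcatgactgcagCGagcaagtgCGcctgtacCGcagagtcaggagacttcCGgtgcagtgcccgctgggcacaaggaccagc
Dlx6: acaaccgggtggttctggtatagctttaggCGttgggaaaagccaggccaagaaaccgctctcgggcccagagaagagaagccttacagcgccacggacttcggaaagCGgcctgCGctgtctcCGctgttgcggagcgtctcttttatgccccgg
Stk4: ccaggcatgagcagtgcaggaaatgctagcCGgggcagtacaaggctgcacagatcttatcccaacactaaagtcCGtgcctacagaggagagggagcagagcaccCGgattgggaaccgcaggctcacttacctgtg
Hotair: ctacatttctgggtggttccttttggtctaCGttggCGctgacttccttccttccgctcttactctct

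The gaining cytosines went from a partly methylated state to a more methylated one. Averaged over the 426, 5mC was 35.5, 34.7 and 33.1% in the control libraries and 64.1, 62.2 and 61.8% in the DMM libraries at week 12. The conditions required that separation, so it is a description, with limb means of 34.4 ± 1.22% and 62.7 ± 1.21% (SD, n = 3). In control cartilage 385 of the 426, or 90.4%, lay between 20 and 80%, against 20.7% of all covered cytosines. The pooled difference had a median of 27.4 points and reached 41.9, and it was 40 points or more at 4 cytosines. The gap between the lowest DMM and the highest control library ranged from 0.174 to 37.4 points, with a median of 13.2, and was at least 10 points at 304 cytosines.

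Over all covered cytosines the libraries of the limbs did not overlap, with DMM higher, at 2.54%, and every gaining cytosine was in that class by construction. Just inside the threshold of 25 points were chr11:85834759 near Tbx2 (20 to 45%), chr8:121086937 near Fendrr and Foxf1 (38.04 to 63.04%) and chr10:5491420 in Syne1 (59.70 to 84.71%). Just outside were chr6:66275118 near Gm36408 (53.29 to 78.29%), chr9:74985670 near Fam214a (29.03 to 54.02%) and chr10:84483758 near 4930463O16Rik (52.38 to 77.37%). The threshold therefore cut through a continuous range of differences.

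Coverage of the gaining cytosines was lower than that of the others. The median of the lowest coverage over the 6 libraries was 17 reads at gaining cytosines and 27 at all covered ones. At 263 gaining cytosines, or 61.7%, at least 1 library had fewer than 20 reads, against 24.9% of all. Control replicate 2 was the shallowest at the gaining cytosines, with a median of 17.5 reads.

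Each week 12 library was also left out of the conditions in turn, so that its own value at the cytosines passing in the other 5 had not been used. Those cytosines differed by 28.4 to 29.1 points on average in the 5 libraries that chose them. The library left out differed from the other limb by 13.5 points (DMM replicate 1) to 18.7 points (DMM replicate 2). It lay beyond every library of the other limb at 72.2 to 80.1% of the cytosines. The same share over all covered cytosines was not counted, so these values are a description. The other limb's libraries had been used in the choice, which by itself separates them from the library left out. Left-out DMM libraries averaged 51.8 to 54.0%, beside 53.9 to 56.5% for the DMM libraries at partly methylated cytosines in general. Left-out control libraries averaged 45.2 to 48.3%, beside 58.1 to 60.2%.

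**Figure D1:**
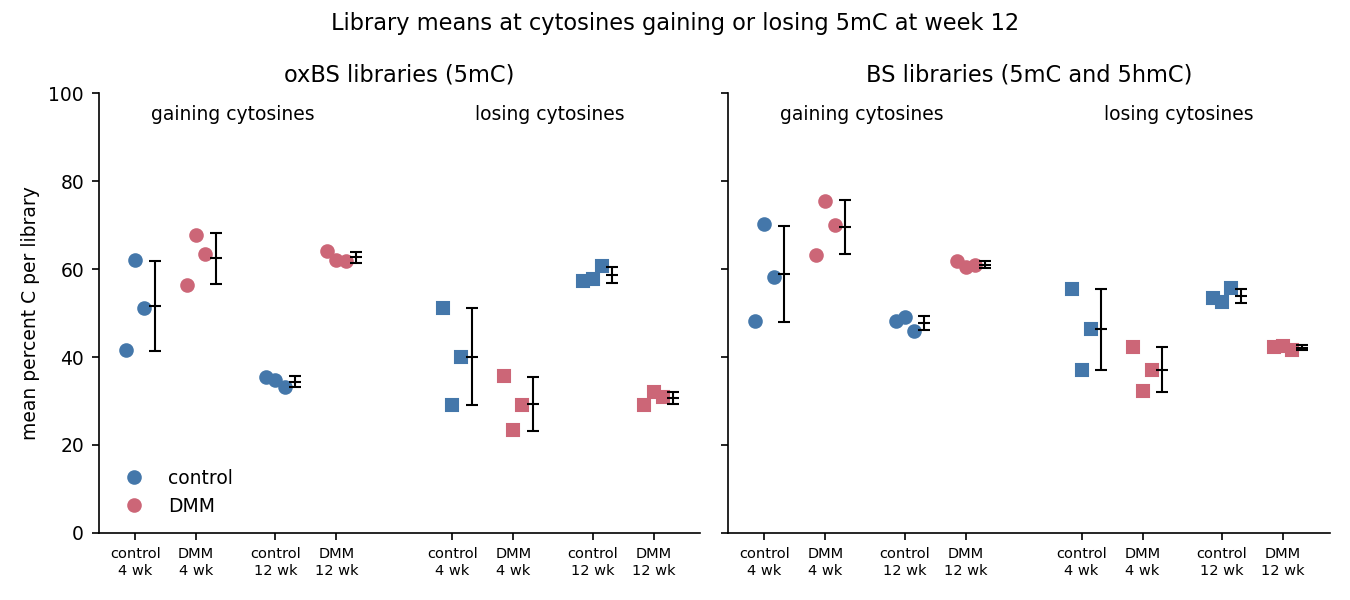
Mean percent C of each library (points) at gaining cytosines (circles) and losing cytosines (squares), in oxBS libraries (left) and BS libraries (right), with the mean and SD of 3 libraries beside each group. At gaining cytosines the week 12 oxBS limbs were separate, from 33.1 to 35.5% in control and from 61.8 to 64.1% in DMM, while the week 4 limbs overlapped.

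The gaining cytosines lay on all 19 autosomes, and 69.0% had no other gaining cytosine within 100 bp. They formed 352 clusters when those at most 100 bp apart were joined, of which 294 were single cytosines, 48 held 2, 6 held 3, 3 held 4 and 1 held 6. Chromosome 2 had the most, with 47, or 0.472 per 1000 covered cytosines, and chromosome 16 had the most per covered cytosine, with 0.625 per 1000. Only 6 gaining cytosines had a gaining cytosine on the other strand of the same CpG. Cytosines near them that did not meet the conditions shifted the same way by less. At 80 covered cytosines on the other strand of a gaining CpG, the pooled week 12 difference averaged 12.7 points and 75 (93.8%) were higher in DMM. At 1076 other covered cytosines within 100 bp it averaged 12.8 points, with 1016 (94.4%) higher. Of all covered cytosines, most of which were nearly unmethylated, 36.7% were higher in DMM. These neighbors come from the same libraries and often the same reads, and are given as a description.

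Gaining cytosines were mostly outside promoters. Within 1000 bp of a RefSeq transcript start lay 67 (15.7%), in coding exons 65 (15.3%), in introns 151 (35.4%), in noncoding exons 18 (4.23%), in 3′ UTRs 14 (3.29%), in 5′ UTRs 2 (0.469%) and in intergenic DNA 109 (25.6%). Of all covered cytosines, 54.1% were within 1000 bp of a start. A closer comparison is with the 258870 covered cytosines that had 20 to 80% 5mC in control cartilage, because most gaining cytosines were in that range. Of those, 11.1% lay near a start, 11.3% in coding exons, 40.5% in introns and 31.9% in intergenic DNA. The losing cytosines had 10.5% near a start, 9.66% in coding exons, 44.9% in introns and 28.2% in intergenic DNA.

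Gaining cytosines had a median distance of 5680 bp to the nearest start, against 11167 bp for the partly methylated cytosines, 10680 bp for the losing ones and 667 bp for all. The 301-bp window around them held a median of 8 CpGs, against 7 for partly methylated and 19 for all covered cytosines. CpG-dense windows made up 9.86%, against 7.83% and 54.4%. Soft-masked repeats held 26 gaining cytosines (6.10%). None of these shares was tested, since cytosines in one cluster are not independent.

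**Figure D2:**
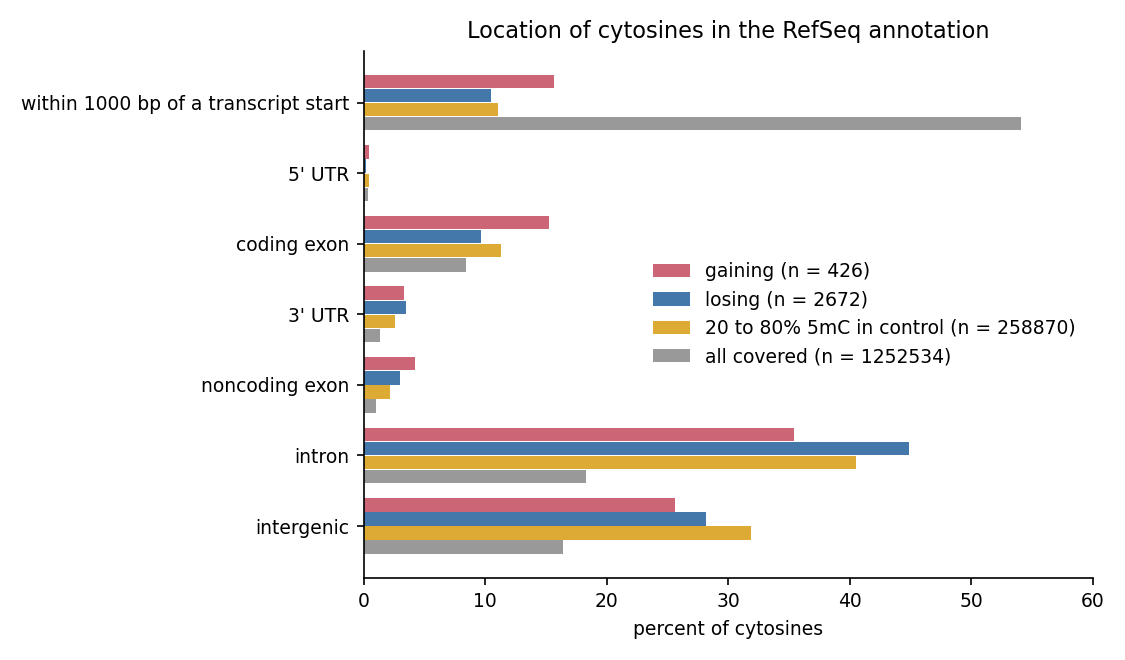
Percent of cytosines (horizontal axis) in each class of the RefSeq annotation (rows), for gaining cytosines, losing cytosines, cytosines at 20 to 80% 5mC in control cartilage and all covered cytosines. Gaining cytosines were near transcript starts less often than all covered cytosines (15.7 against 54.1%), at a share near that of partly methylated cytosines (11.1%).

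Motifs of 4 transcription factor families known in cartilage were counted in the 301-bp windows on both strands, with 1 window per cluster. The RUNX letters TGTGGT were in 89 of 352 windows (25.3%), against 19.3% of the windows of losing and 19% of those of all covered cytosines. The AP-1 letters TGANTCA were in 25 windows (7.10%), against 14.7% for losing and 7.5% for all. TEAD letters (GGAATG) were in 13.9%, against 18.9 and 16.1%. SOX letters (ACAATG) were in 12.8%, against 10.4 and 11.7%. No motif is contained in another, and a match is only a match of letters.

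The cluster with the most gaining cytosines lay in a coding exon of Sipa1, a Rap GTPase-activating protein known in lymphocytes. It held 6 cytosines at chr19:5660847-5660969, among 12 covered in that span. Their mean 5mC was 32.49, 37.11 and 27.47% in the control libraries and 66.2, 52.55 and 57.49% in the DMM libraries at week 12. At week 4 it was 41.95, 63.89 and 52.15% in control and 58.26, 72.34 and 63.51% in DMM. The limbs overlapped at week 4 only because control replicate 2 reached the range of the DMM libraries.

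Prdm16 encodes a transcription factor that directs brown fat development and also acts in blood stem cells. The 4 gaining cytosines of its cluster, at chr4:154634783-154634816, were in a noncoding exon and were also assigned to the noncoding genes 5930403L14Rik and Prdm16os. They averaged 27.88, 38.24 and 33.68% in control and 67.79, 60.1 and 57.57% in DMM at week 12. At week 4 they averaged 42.29, 64.24 and 47.22% in control and 60.65, 67.65 and 64.93% in DMM. Again control replicate 2 alone overlapped the DMM libraries.

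Heg1 is a membrane protein of endothelium needed for heart and vessel development, and its cluster was intronic, at chr16:33751799-33751838. Its 4 cytosines averaged 29.65, 32.56 and 26.65% in control and 59.28, 52.88 and 62% in DMM at week 12. At week 4 they averaged 34.78, 63.45 and 48.52% in control and 51.33, 53.05 and 64.81% in DMM. There control replicate 2 was above 2 of the 3 DMM libraries.

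Dlx6 encodes a homeobox factor of limb, jaw and bone development. Its cluster of 4, at chr6:6864726-6864821, was also assigned to the noncoding genes Dlx6os1 and Dlx6os2. The week 12 means were 30.01, 30.17 and 29.41% in control and 55.33, 52.51 and 60.12% in DMM. The week 4 means were 32.6, 56.59 and 46.61% in control and 56.2, 75.46 and 70.01% in DMM. The lowest DMM library at week 4 was just below the highest control library.

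Clusters of 3 lay in an intron of Stk4, a kinase of the Hippo pathway, and in Dok2, an adaptor protein of blood cells. Other clusters of 3 lay in Gm36500 near the tubulin gene Tubb2b, at Gm4598, and at chr4:129761744-129761795, where no gene lay within 10000 bp. The sixth, in a coding exon of Lyl1, held 3 cytosines of 2 CpGs, at 22.67, 30.02 and 21.21% in control and 57.75, 36.73 and 46.31% in DMM at week 12. The Stk4 cluster, at chr2:164085314-164085391, averaged 36.16, 46.53 and 37.7% in control and 71.31, 64.68 and 71.87% in DMM at week 12, and 55.04, 74.86 and 57.74% against 63.02, 81.59 and 76.58% at week 4. The first Dok2 cluster, at chr14:70775475-70775487, averaged 44.52, 54.39 and 37.85% in control and 67.3, 76.89 and 79.84% in DMM at week 12. The cluster in Gm36500, at chr13:34132583-34132618, averaged 30.7, 14.58 and 14.91% in control and 54.08, 46.15 and 47.5% in DMM. Of the 10 named clusters covered at week 4, it was the only one with no overlap between limbs there, at 40.19, 39.4 and 37.66% in control and 44.93, 54.76 and 50.75% in DMM. The Gm4598 cluster, at chr7:24661290-24661329, averaged 44.79, 39.39 and 26.39% in control and 66.67, 74.31 and 72.84% in DMM and was not covered in all week 4 libraries.

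The remaining named clusters held 2 cytosines each. That in Abr averaged 37.5, 55 and 50% in control and 84.62, 90 and 81.25% in DMM. A second Dok2 cluster averaged 29.17, 37.5 and 34.85% in control and 68.59, 76.63 and 66.67% in DMM. At Hotair, a long noncoding RNA of the HoxC locus, the cluster was in an exon and the averages were 25.95, 28.12 and 30.56% in control and 61.33, 63.04 and 64.49% in DMM. At week 4 the Hotair cluster overlapped, at 35.42, 61.56 and 46.55% in control and 46.48, 54.79 and 58.8% in DMM.

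**Figure D3:**
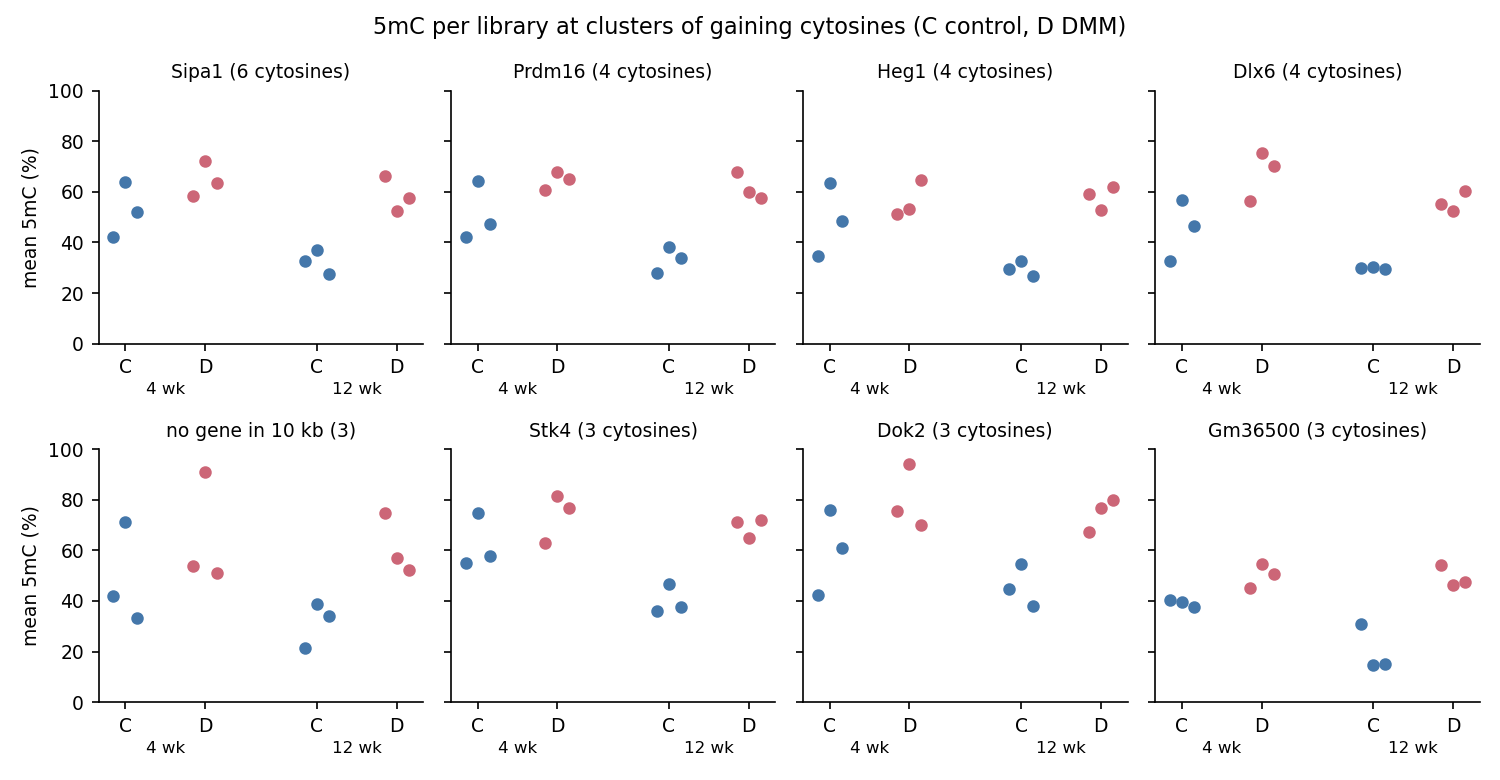
Mean 5mC (%) per library at the 8 largest named clusters that were covered at week 4, for control (C, blue) and DMM (D, red) libraries at 4 and 12 weeks. Limbs were separate at week 12, which the choice required, and overlapped at week 4 in 7 of the 8, the exception being Gm36500.

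The 3 single cytosines with the largest week 12 differences were at Dab2ip, Hotair and Gm32747. Near Dab2ip, which encodes a Ras GTPase-activating protein, the cytosine at chr2:35732908 was intergenic and in a soft-masked repeat. It was at 10, 25 and 28% in control and 58.33, 56 and 69.23% in DMM, with 12 to 30 reads a library. In Hotair, chr15:102945762 was at 27.5, 25 and 27.78% in control and 65.22, 69.57 and 72.22% in DMM. At Gm32747, chr2:167839582 was at 41.18, 36.36 and 23.53% in control and 80, 78.57 and 73.08% in DMM. At week 4 the Hotair cytosine differed by -2.42 points and that at Gm32747 by 4.808 points, and the Dab2ip cytosine was not listed in control replicate 3.

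The BS libraries of the same week 12 DNA also showed higher values in DMM, by less. At the 386 gaining cytosines covered there, BS percent C was 48.1, 49.2 and 46.0 in control and 61.8, 60.4 and 61.0 in DMM. The pooled difference averaged 13.4 points, against 28.3 points for oxBS. It was higher in DMM at 365 cytosines (94.6%, against 37.2% of all cytosines covered in BS). DMM libraries were all above control libraries at 163 (42.2%, against 3.10% of all cytosines covered in BS) and all below at none (against 4.30%). As the same DNA chose the cytosines, this has no test.

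The 5hmC estimates at week 12 moved the other way, which the choice helped to set, since the oxBS value enters 5hmC with a minus sign. They were 13.1, 14.7 and 13.1% in control and -1.96, -1.59 and -0.319% in DMM, with limb means of 13.6 ± 0.9% and -1.29 ± 0.862% (SD, n = 3). A share below 0 cannot be a level of 5hmC, so the DMM estimates cannot be read as levels. At losing cytosines the estimates were reversed, at -4.52 ± 0.662% in control and 11.7 ± 1.5% in DMM. Over all covered cytosines they were 1.54 and 2.05%. How far the choice on oxBS values set these numbers was not tested, and the week 4 estimates below do not share that choice.

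Week 4, which came from other mice, tested whether the same cytosines already differed 4 weeks after surgery. All 6 week 4 oxBS libraries covered 332 of the 426 and the other 94 were not tested. Their mean 5mC was 41.6, 62.2 and 51.2% in the control libraries and 56.3, 67.8 and 63.5% in the DMM libraries. The limbs overlapped, because control replicate 2 was above DMM replicate 1, and the limb means were 51.7 ± 10.3% and 62.5 ± 5.82% (SD, n = 3). At each replicate number the DMM library was above the control library, but the labels do not say that equal numbers share mice. These levels cannot be set against the low and even control values of week 12, which the choice fixed.

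The pooled difference at week 4 averaged 4.61 points over the 332, with quartiles of 0.9 and 8.9 and a range of -12.4 to 21.5, and 260 (78.3%) were higher in DMM. Over all covered cytosines the mean was -0.253 and 46.3% were higher in DMM. No gaining cytosine was called by the likelihood ratio test at 25 points and q under 0.05, where 8 of 1424658 cytosines (0.000562%) were called. At an unadjusted p under 0.05, 65 (19.6%) were higher and 2 (0.602%) lower in DMM, against 3.42% and 4.62% of all. The test counts reads and not samples as units. With an overdispersion term between libraries, 1 of 332 gaining cytosines had an unadjusted p under 0.05, against 8102 of 1424658 in all. With that term no cytosine was called, gaining or other.

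Without pooling, the 3 DMM libraries all exceeded the 3 control libraries at 30 gaining cytosines (9.04%) and were all lower at 1 (0.301%). Over all cytosines the shares were 2.39% and 3.76%. Among cytosines at 20 to 80% over the 6 week 4 libraries, a set chosen after seeing the data, they were 3.01% and 6.58%, against 29 of 329 gaining cytosines (8.81%) higher and 1 (0.304%) lower. In that range the pooled difference was above 0 at 42.4% of all and 78.4% of gaining cytosines. At the 2322 losing cytosines covered at week 4, the libraries were at 51.1, 29.1 and 40% in control and 35.6, 23.3 and 29.0% in DMM. The losing cytosines therefore mirrored the gaining ones, library by library.

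The size of the week 4 difference rested on control replicate 2, which at the gaining cytosines had a median of 104.5 reads and so weighed most in the pooled reads. Without it the mean difference was 14.06 points and 20 of 332 gaining cytosines were called, against 0.212% of all cytosines. Without control replicate 1 the mean difference was 0.57 points with 0 called, against 0.000557% of all. Without DMM replicate 1 it was 9.23 points with 2 called, against 0.0133% of all. With libraries weighted equally it was 10.83 points. At partly methylated cytosines in general the same libraries stood in another order, at 60.7, 54.0 and 56.8% in control and 55.9, 52.5 and 54.2% in DMM, so that control replicate 2 was lower there than the other control libraries.

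The single cytosines with the largest week 4 differences were near Gm41236, in Pxn and at Dlx6. Near Gm41236, chr14:103059450 lay in a soft-masked repeat. It was at 52, 66.67 and 55.56% in control and 74.55, 91.67 and 92.59% in DMM, a pooled difference of 21.48 points (q = 0.3978, likelihood ratio test). In an intron of Pxn, which encodes the focal adhesion protein paxillin, chr5:115545010 was at 52.17, 65 and 40% in control and 62.79, 78.57 and 90.91% in DMM (q = 0.5324). At Dlx6, chr6:6864812 was at 34, 57.41 and 53.12% in control and 57.78, 85.19 and 75% in DMM (q = 0.4124). The limbs did not overlap at the Gm41236 and Dlx6 cytosines and overlapped at Pxn.

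The 3 lowest week 4 differences were -12.38 points at chr16:4578781, where no gene lay within 10000 bp, -10.79 points in an intron of Hsd17b3 and -10.17 points in an intron of E230001N04Rik. The Hsd17b3 cytosine, chr13:64071846, was at 77.78, 69.57 and 75.86% in control and 67.05, 55 and 56.14% in DMM. It was the 1 gaining cytosine whose DMM libraries were all below control at week 4, while at week 12 it had gone from 58.33 to 84.47%.

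BS libraries at week 4 gave 48.3, 70.2 and 58.3% in control and 63.2, 75.5 and 70.0% in DMM over 405 gaining cytosines, again with overlap of the limbs through control replicate 2. The 5hmC estimates at the 321 covered in both were 6.00, 8.34 and 6.38% in control and 6.83, 7.94 and 6.87% in DMM. The limbs overlapped, with means of 6.90 ± 1.26% and 7.22 ± 0.629% (SD, n = 3), beside 5.64 and 7.15% at losing cytosines and 2.16 and 2.59% at all covered cytosines, most of which were unmethylated. The pooled difference averaged -0.68 points (0.51 without control replicate 2, 0.31 with samples weighted equally). It was higher in DMM at 142 (44.2%, against 50.4% of all cytosines). DMM samples were all above control at 21 (6.54%, against 3.66% of all cytosines) and all below at 14 (4.36%, against 2.95%). The week 12 estimate had been -14.9 points. At week 4, 3 of the 6 BS libraries deviated from the mean most like the oxBS library of another sample than their own, whereas at week 12 each was most like its own, which limits the subtraction at week 4.

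**Figure D4:**
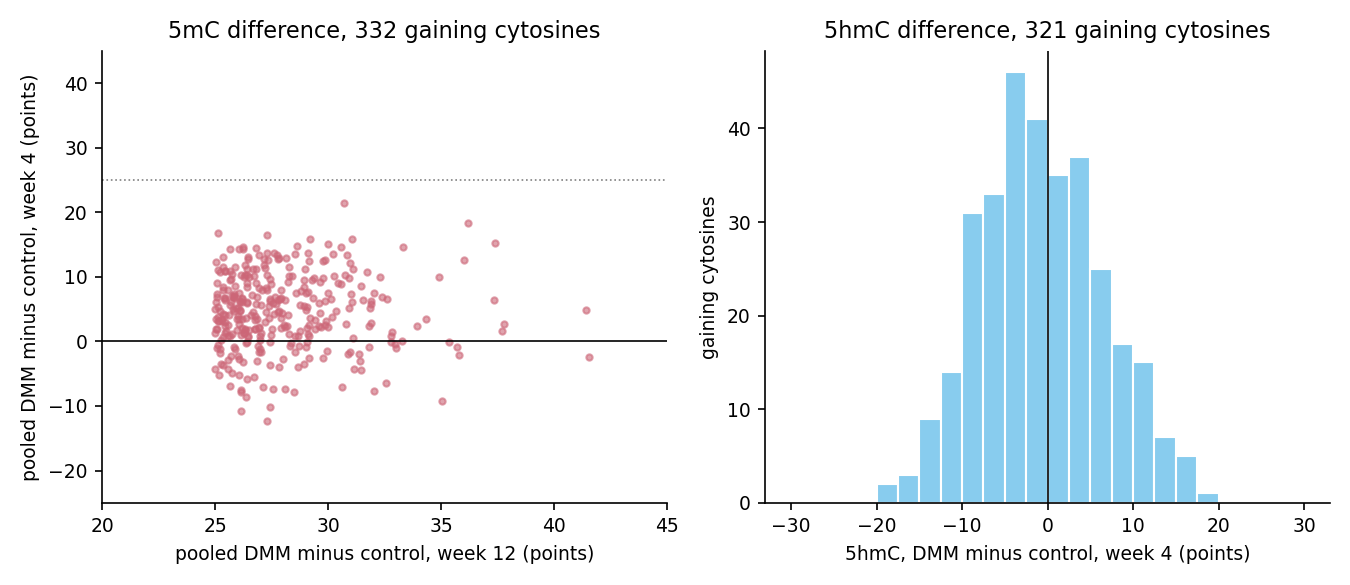
Left, pooled 5mC difference (DMM minus control, points) of each gaining cytosine at week 12 (horizontal axis) and week 4 (vertical axis), with the 25-point threshold dotted. Right, histogram of the week 4 5hmC difference. Week 4 5mC differences ran from -12.4 to 21.5 points with 78.3% above 0 (46.3% of all covered cytosines). Of the 5hmC differences 44.2% were above 0 (50.4% of all).

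The gaining cytosines were assigned to 327 of the 28209 genes with a covered cytosine (1.16%), by lying in the gene, in the 5000 bp upstream, or else within 10000 bp of the nearest gene. Dok2, Prdm16, Scarf2 and Sipa1 had 6 each, Heg1 and Xpo7 had 5, and Dlx6, Meis1, Pitx1, Pxn and Zfp316 had 4. Dok2 and Xpo7 share 5 of theirs because the genes are neighbors. Of 14 gene lists, the share with a gaining cytosine was highest in fat cell genes (3 of 14), limb and skeletal transcription factors (9 of 72) and blood and immune cell genes (5 of 41).

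The limb and skeletal factors were Dlx6, Meis1 and Pitx1 with 4 gaining cytosines each, Tbx2 with 2, and Barx1, Msx2, Nkx3-2, Osr1 and Pax9 with 1. Those of Pitx1, which sets hindlimb identity, were upstream of the gene at chr13:55836997-55837454 and went from between 22.45 and 31.87% in control to between 48.44 and 61.86% in DMM at week 12. Those of Barx1, Lyl1 and the fat cell gene Lipe were in coding exons. The blood and immune genes were Lyl1, a factor of blood stem cells, with 3, Arhgap45 and the leukocyte integrin chain Itgb2 with 2, and Coro1a and Vav1 with 1, and both cytosines of Arhgap45 and of Itgb2 lay within 1000 bp of a start. The fat cell genes were Prdm16, Ebf2 and Lipe.

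The FGF, hedgehog, IGF and Notch list had 2 of 51 genes, Gli2 and Igf1r, and the list of other collagens and matrix proteins had 1 of 48, Fbln1. No gaining cytosine was assigned to a gene of cartilage matrix (27 genes with a covered cytosine), hypertrophy and ossification (25), matrix proteases (39), TGF-beta and BMP (46), WNT (60), Hox (39), skeletal muscle (34), DNA methylation enzymes (13) or imprinted genes (31). These counts carry no test, and longer or CpG-richer genes had more cytosines that could be chosen.

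RNA of the assigned genes, from other mice, tested whether their expression differed between limbs. The count table held 257 of the 327, of which 225 passed the filter on low counts at week 12. None was called by edgeR's quasi-likelihood test at an adjusted p under 0.05, against 0.00713% of genes with a covered cytosine called higher and 0% called lower. At an unadjusted p under 0.05, 24 (10.7%) were higher and 29 (12.9%) lower in DMM, against 9.07% and 7.22% of genes with a covered cytosine. Libraries of the limbs did not overlap at 28 genes with DMM higher (12.4%, against 10.8% of genes with a covered cytosine) and at 30 with DMM lower (13.3%, against 7.97%). The median log2 fold change was -0.12, against 0.02, and 93 genes (41.3%) were positive, against 52.6%.

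DESeq2 called 20 of 218 nearby genes at week 12. They were 8 higher (3.67%, against 2.39%) and 12 lower (5.50%, against 1.26%). At week 4, 224 nearby genes were tested and edgeR called none, with 0% called in either direction among all. There, 6 (2.7%) were higher and 25 (11.2%) lower at an unadjusted p under 0.05, against 5.41% and 7.75%. The week 4 median log2 fold change was -0.27, against -0.05, and 63 genes (28.1%) were positive, against 46.0%. Skeletal muscle markers were lower in DMM at week 4 with no overlap, summing to 6090 to 18700 CPM (counts scaled to library size) in control and 521 to 3480 in DMM, and their part in these values was not tested. In such bulk samples a change in the number of cells of a type and a change in RNA per cell cannot be told apart. Week 4 libraries did not overlap at 11 nearby genes with DMM higher (4.9%, background 10.8%) and at 23 with DMM lower (10.3%, background 10.2%). DESeq2 called 2 higher (0.87%, background 1.01%) and 4 lower (1.73%, background 2.02%). The change between weeks, tested as an interaction in edgeR, passed at 0 of 15592 genes, of which 227 were nearby, and at an unadjusted p under 0.05 it passed at 22 nearby genes and 1863 in all.

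The limb and skeletal factors near gaining cytosines had mostly positive week 12 fold changes, and none passed in edgeR. Nkx3-2, a repressor in early chondrocytes, was at 0.497, 1.51 and 0.860 CPM in control and 3.37, 2.69 and 1.94 in DMM. Barx1, a homeobox factor of the joint and jaw, was at 4.18, 11.8 and 5.79 CPM in control and 20.8, 19.9 and 12.1 in DMM. Pax9 was at 0.795, 0.944 and 1.10 CPM in control and 3.46, 1.93 and 1.37 in DMM. The limbs did not overlap at any of these 3 genes, with DMM higher, and Nkx3-2 and Pax9 were at a few CPM only. The log2 fold changes were 1.46 ± 0.45 (SE), 1.27 ± 0.40 and 1.26 ± 0.41, with adjusted p of 0.257, 0.263 and 0.266 in edgeR and 0.0655, 0.0408 and 0.111 in DESeq2, so that DESeq2 called Barx1. Msx2 (1.19 ± 0.52) and Dlx6 (0.51 ± 0.29) also did not overlap, Pitx1 was at 0.80 ± 0.42 with overlap, and Meis1 was at -0.24 ± 0.19. Msx2 and Dlx6 were low as well. Msx2 was at 0.196 to 0.696 CPM in control and 0.699 to 1.34 in DMM. Dlx6 was at 1.49 to 2.43 CPM in control and 2.48 to 3.17 in DMM.

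Of the 9 factors, 8 were positive and 6 did not overlap, all with DMM higher, with a median of 0.80. Among genes with a covered cytosine, 52.6% were positive and 10.8% did not overlap with DMM higher. The share without overlap in the whole list was not counted. The whole list of 62 tested factors, most without a gaining cytosine, had a median of 0.69. Summed chondrocyte markers at week 12 were 2980 to 5970 CPM in control and 6370 to 9140 in DMM, with no overlap, and osteoblast markers were 2630 to 3930 against 4510 to 6260. At week 4, when the 9 factors had a median of -0.12, chondrocyte markers overlapped, at 4000 to 7500 against 3210 to 7090, while osteoblast markers did not, at 4580 to 6280 against 8790 to 10600. The part of these cells in the result was not tested.

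The 5 blood and immune genes were all lower, with overlap and a median log2 fold change of -0.51, the same as the median of the 43 tested genes of their list. Coro1a, an actin regulator of leukocytes, was at 1018, 767 and 1050 CPM in control and 636, 522 and 960 in DMM at week 12. Neutrophil markers summed to 33800 to 59000 CPM in control and 26500 to 44700 in DMM, and erythroid markers to 11000 to 16100 against 7430 to 13100. Both marker sums overlapped and were lower at their extremes in DMM, and their part in the RNA or 5mC values was not tested. At week 12 muscle markers ranged from 88.2 to 14700 CPM in control and 453 to 10000 in DMM. The 3 fat cell genes had a median of -0.40, against -0.21 for their list.

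Of the genes with the most gaining cytosines, Scarf2 and Xpo7 had the largest RNA differences. Scarf2, a scavenger receptor, had 6 gaining cytosines in introns and coding exons and was at 12.4, 21.6 and 20.2 CPM in control and 60.9, 40.8 and 25.3 in DMM. The 5 gaining cytosines of Xpo7, a nuclear export receptor known in maturing red cells, lay outside it, in its neighbor Dok2. Xpo7 was at 259, 148 and 359 CPM in control and 139, 104 and 132 in DMM. Stk4 was at 156, 67.7 and 137 CPM in control and 64.3, 46.3 and 71 in DMM. Scarf2 was higher and Xpo7 lower in every DMM library, and Stk4 overlapped in control replicate 2. The log2 fold changes were 1.23 ± 0.34, -1.03 ± 0.30 and -0.99 ± 0.31 (SE), with edgeR adjusted p of 0.241, 0.255 and 0.266, and DESeq2 adjusted p of 0.0168, 0.0226 and 0.0402. At week 4 the same fold changes were 0.01 ± 0.34, -0.33 ± 0.32 and -0.03 ± 0.30.

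Sipa1, with the largest cluster, was at 186, 173 and 193 CPM in control and 139, 109 and 169 in DMM, with no overlap and a log2 fold change of -0.41 ± 0.17 (adjusted p = 0.305, edgeR). Prdm16 (-0.40 ± 0.27), Dok2 (-0.40 ± 0.20) and Heg1 (-0.18 ± 0.36) overlapped, and Prdm16 was low, at 2.21 to 3.83 CPM. Zfp316 was at 0.87 ± 0.29, Dlx6os2 at 0.81 ± 0.43 and the nuclear receptor Nr4a2 at 0.80 ± 0.46, none of which passed in edgeR or DESeq2. Neither the kit in the labels nor that in the study's methods marks strand. Reads of Dlx6 and its antisense genes therefore cannot be told apart where the genes overlap. Of the 34 genes named by the fixed rule, 17 were positive and 17 negative, and 9 were higher and 2 lower with no overlap. The shares among genes with a covered cytosine were 10.8% higher and 7.97% lower with no overlap.

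**Figure D5:**
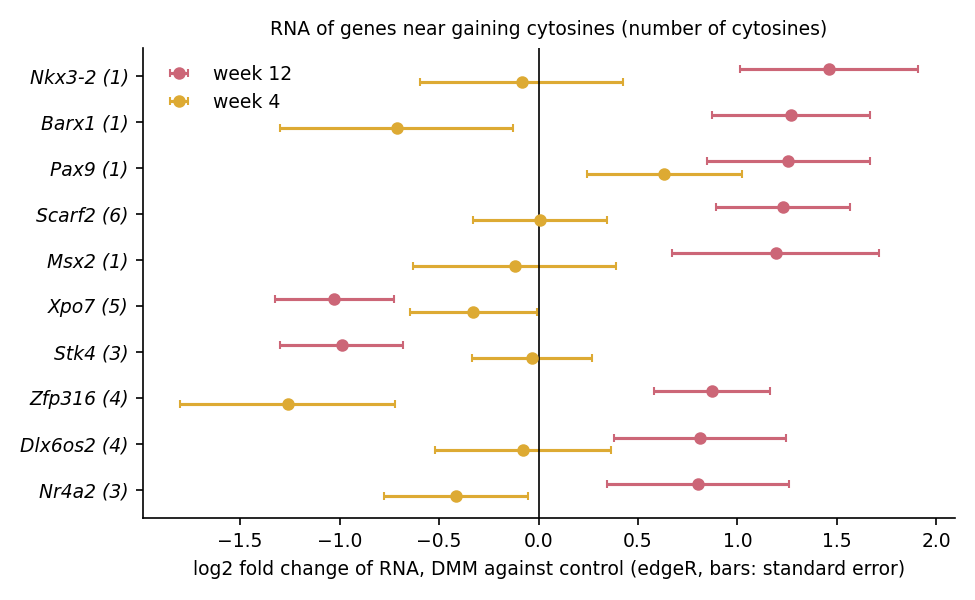
Log2 fold change of RNA (DMM against control, edgeR, bars: SE, 3 libraries a limb) at weeks 12 and 4 for the 10 named genes with the largest week 12 change, with the number of gaining cytosines in brackets. Week 12 values ran from -1.03 (Xpo7) to 1.46 (Nkx3-2), with 8 positive and 2 negative, and no gene passed the adjusted threshold.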

How the data were processed

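Knee cartilage DNA (24 libraries) and RNA (12 libraries) of mice 4 and 12 weeks after DMM were analysed. The submitters' processing notes name CASAVA 2.17 and mm10, with Bismark for bisulfite reads and STAR and featureCounts for RNA. The authors deposited, for each cytosine with at least 10 reads in a library, its coverage as a count of reads and its percent C and percent T. The authors also deposited raw counts per RefSeq transcript. Neither was normalized for depth. The labels and the study's methods name different RNA library kits.

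From these, methylated reads were recovered as coverage times percent C, pooled by limb and compared at week 4 by a two-sided likelihood ratio test of a logistic model, with Benjamini-Hochberg q over all covered cytosines, called at 25 points and q under 0.05. 5hmC was BS minus oxBS percent. RNA used 1 transcript per gene (30048 rows, 23059 genes), TMM and edgeR 4.0.16 (limma 3.58.1), with DESeq2 1.42.0 as an alternative, in R 4.3.3. Other steps used Python 3.11.15, numpy 2.4.6, scipy 1.17.1, pandas 2.3.3 and matplotlib 3.10.9. Tests were checked on simulated data. The simulated methylation reads varied by counting error alone, so that check does not cover the spread between libraries of a limb. Positions matched CpG cytosines of GRCm38 at 1252526 of 1252534 sites. Annotation was RefSeq.

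Named genes were the 12 clusters with the most gaining CpGs, the listed genes with a gaining cytosine (up to 4 per list), genes with at least 3, and the cytosines with the largest and smallest differences at either week, with RNA values by the largest week 12 change. The cytosines and gene lists were chosen with earlier results of these data known. Coverage speaks to counting error only. Sex chromosomes were not used.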

Additional observations from a re-analysis of the deposited data

How the results depend on the processing

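Of 73 alternatives, 52 left the result within its spread or within 1.5 times its count. For the mean week 4 5mC difference of 4.61 points that spread was 8.35 points, so values of 0.57 and 10.83 counted as within it. The 426 gaining cytosines became 163 at 20 reads, 1474 at 20 points, 93 at 30 points and 1640 without control replicate 2 and DMM replicate 1, and 643 to 1110 when any 1 library was left out. Leaving out 1 library gave 0 to 20 called at week 4. The 20 were without control replicate 2, where 0.212% of all cytosines were called. Mean week 4 differences were then 0.57 to 14.06 points (5mC) and -0.92 to 0.51 (5hmC). The week 12 BS difference was 12.59 to 13.84 with 1 library left out, and 15.53 at 20 reads. Nearby genes called at week 12 were 20 in DESeq2 and 0 to 16 without 1 library (16 without control replicate 2), and at week 4 were 6 in DESeq2 and 0 whichever library was left out. Correlations of deviations between same-numbered libraries of the limbs were from -0.05 to 0.04 for week 12 5mC. For RNA they were from -0.58 to 0.30 at week 12 and from -0.36 to 0.38 at week 4. For week 4 5mC they were 0.26, 0.21 and 0.00 at replicates 1, 2 and 3. The week 4 value was -0.19 for control replicate 1 with DMM replicate 2. It was -0.29 for control replicate 2 with DMM replicate 1. Replicates 1 and 2 thus deviated alike across limbs in week 4 5mC, and replicate 3 did not. The labels do not say that equal numbers share mice. With the replicate block the gaining cytosines were 460, and 0 were called at week 4, against 0.00400% of all cytosines. In that likelihood ratio test 183 of 332 had an unadjusted p under 0.05, against 145987 of 1424658 in all. The nearby genes called were 11 of 225 at week 12 and 1 of 224 at week 4. Shares over all genes were not counted for the replicate block or the left-out libraries. The cause of these changes was not tested. Depth limits the single cytosines: at 10 reads, 1 read is worth 10 points.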
